A study of Homo sapiens with 9 samples.

Results

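The 36 genes described here act in the G2 phase and in mitosis. They encode mitotic cyclins and kinases, kinetochore and spindle proteins, the spindle checkpoint and the cytokinesis machinery, and they were taken by symbol from a fixed list. All 36 of 26364 gene symbols were found in each count file, and all 36 were among the 14738 genes that had enough counts for a test. RNA was sequenced from MDA-MB-231 cells, which come from a human breast cancer of the triple-negative type, after stable infection with a pLVX lentivirus. The virus carried MEL-18 T334A, in which the threonine of a phosphorylation site is replaced by alanine, or the wild-type protein (MEL-18 WT), or no insert (empty vector). Each of the 3 groups held 3 cultures grown for 48 h in DMEM with 10% fetal bovine serum. MEL-18, the product of PCGF2, is a RING finger subunit of a repressive Polycomb complex. The lines carried the virus on top of their own PCGF2. Whether a line was 1 clone or a pool, and whether the 3 replicates came from separate infections, is not given in the sources used here. The p-values therefore measure the spread between these cultures, and the construct cannot be told apart from the transduced line.

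Entry into mitosis is driven by cyclin-dependent kinase 1 (CDK1) bound to cyclins A and B. The Polo and Aurora kinases then build the spindle, and the kinetochore attaches it to the chromosomes. The spindle checkpoint holds back the anaphase promoting complex until every chromosome is attached, after which a central spindle and a contractile ring divide the cell. Most of these genes are transcribed late in the cell cycle. Their promoters often hold a cell cycle genes homology region (CHR), which is bound by MuvB complexes that repress these genes in resting cells and activate them with B-MYB and FOXM1. Many also hold CCAAT boxes, which NF-Y binds. Bulk RNA of these genes is used as a sign of proliferation, but fewer cells in G2 and M and less RNA per such cell cannot be told apart.

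The RefSeq promoter table (GRCh38.p14, 250 bases before to 50 bases after a start) held 30 of the 36 genes, and the first listed start of each gene was read. The CHR was searched as TTTGAA or TTCGAA and the CCAAT box as CCAAT, both on either strand. The promoters of 5 genes whose RNA is followed library by library below are printed 5′ to 3′, to show where these elements lie, with the matches in capitals. The TTTGAA that lies nearest to the start of MKI67 overlaps a CCAAT box read on the other strand.
CENPA, chr2:26785806-26786105, plus strand: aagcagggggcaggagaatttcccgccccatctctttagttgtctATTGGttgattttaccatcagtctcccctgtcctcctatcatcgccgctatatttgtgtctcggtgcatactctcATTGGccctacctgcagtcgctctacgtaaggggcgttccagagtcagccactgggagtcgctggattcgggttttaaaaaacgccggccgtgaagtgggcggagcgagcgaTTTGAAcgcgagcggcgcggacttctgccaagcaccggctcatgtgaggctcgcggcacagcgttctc
ECT2, chr3:172750476-172750775, plus strand: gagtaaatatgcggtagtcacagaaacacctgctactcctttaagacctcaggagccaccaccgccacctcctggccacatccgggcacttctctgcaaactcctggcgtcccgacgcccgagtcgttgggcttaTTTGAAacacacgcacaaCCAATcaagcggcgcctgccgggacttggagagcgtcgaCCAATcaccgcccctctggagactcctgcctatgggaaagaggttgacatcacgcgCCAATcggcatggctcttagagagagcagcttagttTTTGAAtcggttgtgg
MKI67, chr10:128126374-128126673, minus strand: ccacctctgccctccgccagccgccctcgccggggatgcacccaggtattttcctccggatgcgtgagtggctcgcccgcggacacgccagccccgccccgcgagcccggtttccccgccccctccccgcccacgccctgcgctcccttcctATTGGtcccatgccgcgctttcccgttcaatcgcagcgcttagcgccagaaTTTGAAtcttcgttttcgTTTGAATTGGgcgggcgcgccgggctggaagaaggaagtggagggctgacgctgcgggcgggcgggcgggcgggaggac
NUF2, chr1:163321704-163322003, plus strand: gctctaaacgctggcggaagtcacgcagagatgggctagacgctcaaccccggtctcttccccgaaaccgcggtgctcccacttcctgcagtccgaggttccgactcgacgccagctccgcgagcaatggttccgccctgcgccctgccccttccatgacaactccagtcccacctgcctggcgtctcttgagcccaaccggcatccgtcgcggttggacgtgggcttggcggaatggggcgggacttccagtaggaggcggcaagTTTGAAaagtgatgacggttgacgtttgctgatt
TOP2A, chr17:40417847-40418146, minus strand: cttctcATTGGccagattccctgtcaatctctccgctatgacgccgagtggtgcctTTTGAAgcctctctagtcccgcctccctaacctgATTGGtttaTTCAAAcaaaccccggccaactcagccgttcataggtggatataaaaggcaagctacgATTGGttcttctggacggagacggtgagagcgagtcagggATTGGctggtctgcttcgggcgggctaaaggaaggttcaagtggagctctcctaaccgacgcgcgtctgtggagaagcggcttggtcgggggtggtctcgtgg

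A CHR match was present in 22 of the 30 promoters (73.3%), against 16.6% of the 27305 promoters in the table and 11.4% of those of tested genes. In 18 promoters (60.0%) a match lay within 50 bases of the start, against 5.05% of all promoters. In PLK1 and CCNB2 the match began 29 bases before the start, and in KIF11 28 bases before it. A CCAAT box was present in 22 promoters (73.3%, against 35.7% of all), 14 held at least 2 (46.7%, against 11.3%), and 18 held both elements (60.0%, against 6.58%). On the gene's own strand alone, CHR matches were found in 21 and CCAAT boxes in 13 of the 30. Neither element was found in this window of CDC25B, CDC25C, CENPE and KIF2C. These matches describe letters and say nothing of binding.

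Library totals ran from 31643722 to 37005302 counts, and single G2 and M phase genes held 921 to 40159 counts per library. PCGF2 stood at 1420, 1450 and 1390 CPM (counts scaled to library totals adjusted by TMM) in MEL-18 T334A libraries, at 1290, 1290 and 1280 CPM in MEL-18 WT libraries and at 22.2, 23.8 and 22.3 CPM with the empty vector. The 6 genes fixed as present in MDA-MB-231 (VIM, CD44, CAV1, AXL, KRT18 and KRT8) summed to 4230 to 4600 CPM in every library, while ESR1, PGR and CDH1 were below 0.3 CPM. The other 3 genes fixed as low or absent were detected, and their part in the results was not tested. ERBB2 stood at 69.5 to 70.5 CPM with MEL-18 T334A, 68.4 to 69 CPM with MEL-18 WT and 62.8 to 65.6 CPM with the vector. EPCAM stood at 12 to 12.6 CPM with MEL-18 T334A, 9.68 to 10.6 CPM with MEL-18 WT and 7.2 to 7.84 CPM with the vector, and both were called higher in both MEL-18 lines. GATA3 stood at 6.44 to 7.82 CPM over all libraries and was not called. Markers of leukocytes summed to at most 1.35 CPM and those of endothelium to at most 2.02 CPM. The 4 fibroblast genes summed to 19.2 to 25.7 CPM with MEL-18 T334A, 18.9 to 21.4 CPM with MEL-18 WT and 15.3 to 16.2 CPM with the vector. Nearly all of that was COL1A1 and PDGFRB, and DCN was at 0 in all libraries but 1. The part of these markers in the results below was not tested.

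In their summed level the G2 and M phase genes differed little between the lines, and their levels were closely held. Their summed level was 9320 ± 268 CPM with MEL-18 T334A, 9300 ± 125 CPM with MEL-18 WT and 9660 ± 79.7 CPM with the empty vector (SD, n = 3 each). The most abundant genes weigh most in this sum. As a share of the library's counts without TMM, they made up 0.957%, 0.917% and 0.957% with MEL-18 T334A. The shares were 0.92%, 0.933% and 0.937% with MEL-18 WT and 0.955%, 0.949% and 0.954% with the vector. The coefficient of variation of a gene between replicates, averaged over the 3 groups, ran from 1.25% to 4.16%. Within single groups the spread reached beyond this range. CCNA2 was at 96.7 ± 6.7 CPM with MEL-18 T334A and at 112 ± 0.252 CPM with the vector (SD, n = 3 each). Levels of different genes were compared per kilobase of exon, with lengths from GENCODE 29, which is not the annotation used for the counts. On that scale TOP2A, the topoisomerase that untangles sister chromatids, was the highest of the 36 with the empty vector (199 ± 1.83 CPM per kb, SD, n = 3). HMMR, a spindle and hyaluronan-binding protein, was the lowest, at 11.6 ± 0.561 CPM per kb.

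MEL-18 T334A was compared with the empty vector to find what the mutant line changed. ECT2, which activates RhoA for cytokinesis, CENPA, the centromeric histone, and HMMR fell most, and the Polo and Aurora kinase group fell throughout. BUB3, a checkpoint protein, and MKI67, the Ki-67 protein that coats mitotic chromosomes, rose most. Of the 36 genes, 23 fell (63.9%) and 4 rose (11.1%) by edgeR's quasi-likelihood test at a Benjamini-Hochberg adjusted p below 0.05. Over all tested genes 22.5% fell and 23.4% rose, 45.9% in all. Genes with many counts are called more readily, and among the 6643 genes with a mean of at least the lowest of the 36 (30.4 CPM), 34.9% fell and 22% rose, 56.9% in all. With libraries scaled by their totals alone, 17 of the 36 fell and 7 rose. The median log2 fold change of the 36 was -0.11, against 0 over all tested genes, and the range was -0.45 to 0.29. Replicates of the groups did not overlap for 29 of the 36 (80.6%), against 51.5% of all tested genes.

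**Figure D1:**
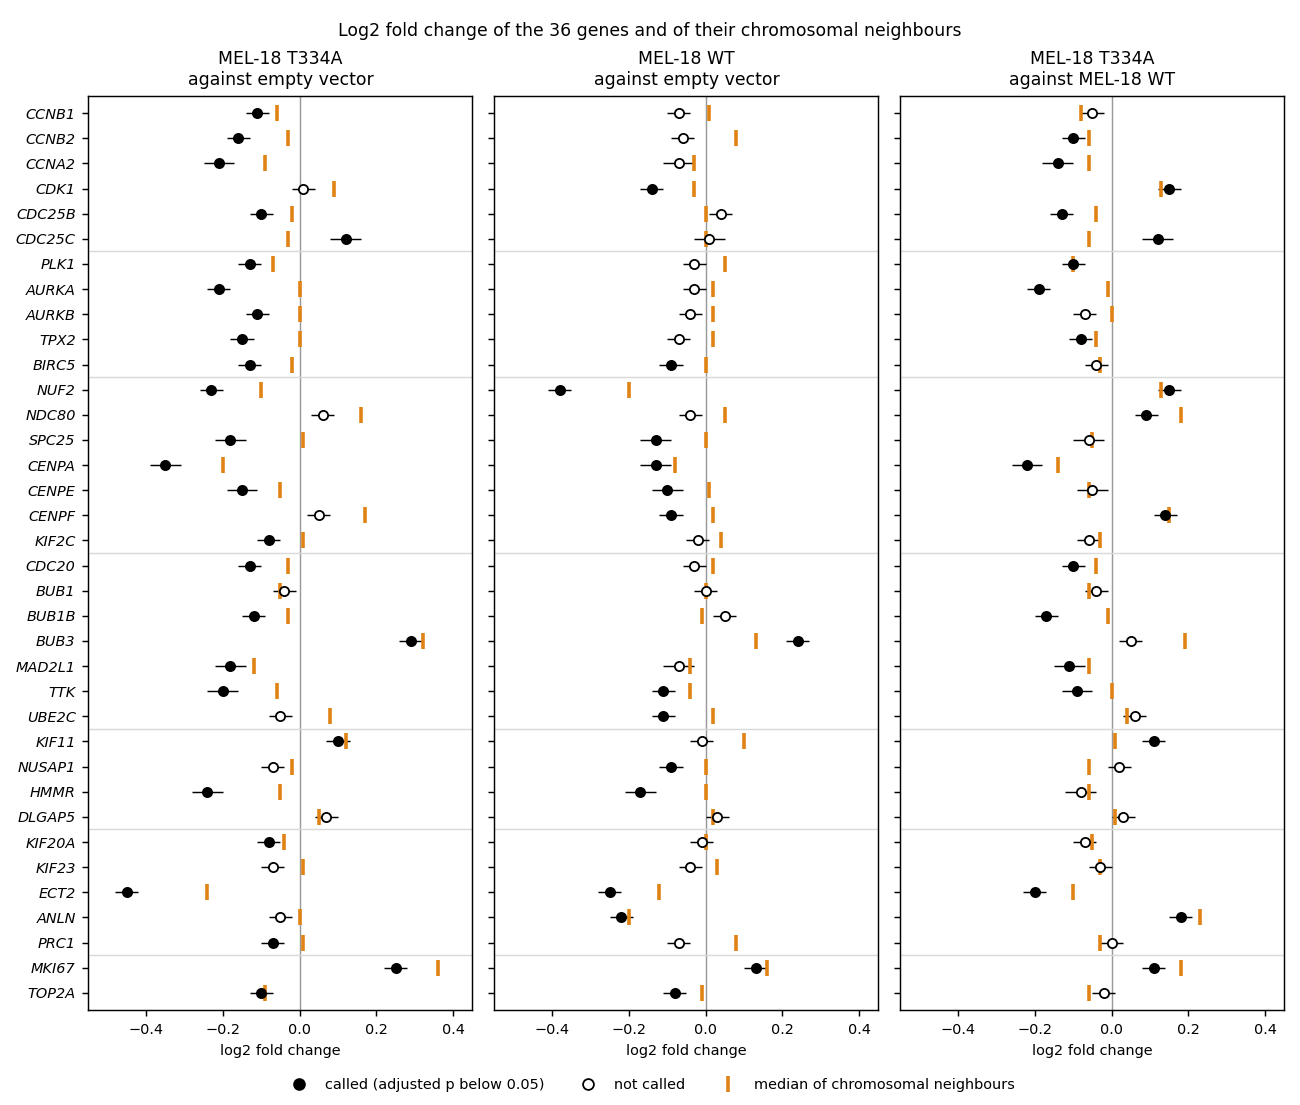
Log2 fold change (x axis) of each of the 36 genes, grouped by role from the cyclins at the top to the proliferation markers at the bottom, in the 3 comparisons; circles are estimates with bars of 1 SE, filled where called, and orange ticks are the median log2 fold change of 20 tested genes on each side along the chromosome. Most circles in the left panel lie below 0, with ECT2 (-0.45) and BUB3 (0.29) at the ends, and the orange ticks of ECT2, CENPA, MKI67 and BUB3 lie on the same side of 0 as their circles.

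ECT2 stood at 335, 318 and 338 CPM in MEL-18 T334A libraries, 379, 378 and 385 CPM in MEL-18 WT libraries and 450, 454 and 454 CPM with the empty vector. The 3 groups did not overlap, with MEL-18 T334A lowest and the vector highest. ECT2 fell by 0.45 ± 0.03 (SE) on the log2 scale in MEL-18 T334A (edgeR adjusted p = 5.83e-13). CENPA stood at 36.7, 33.4 and 35.2 CPM with MEL-18 T334A, 40.3, 40.9 and 41.4 CPM with MEL-18 WT and 47.4, 44.2 and 42.4 CPM with the vector. Its groups kept the same order without overlap. CENPA fell by 0.35 ± 0.04 in MEL-18 T334A (edgeR adjusted p = 2.43e-07).

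MKI67 stood at 928, 851 and 902 CPM with MEL-18 T334A, 799, 845 and 833 CPM with MEL-18 WT and 751, 758 and 750 CPM with the vector. Every MEL-18 T334A library was above every MEL-18 WT library, and these were above the vector. MKI67 rose by 0.25 ± 0.03 in MEL-18 T334A (edgeR adjusted p = 2.75e-07). BUB3, which brings checkpoint kinases to the kinetochore, stood at 268, 263 and 280 CPM with MEL-18 T334A, 255, 268 and 258 CPM with MEL-18 WT and 224, 226 and 214 CPM with the vector. Both MEL-18 groups were above the vector and overlapped with each other. TOP2A went the other way, at 1100, 1040 and 1080 CPM with MEL-18 T334A, 1070, 1090 and 1110 CPM with MEL-18 WT and 1160, 1140 and 1140 CPM with the vector. It fell by 0.10 ± 0.03 in MEL-18 T334A (edgeR adjusted p = 0.00648), so that the pair of common proliferation markers was called in opposite directions.

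**Figure D2:**
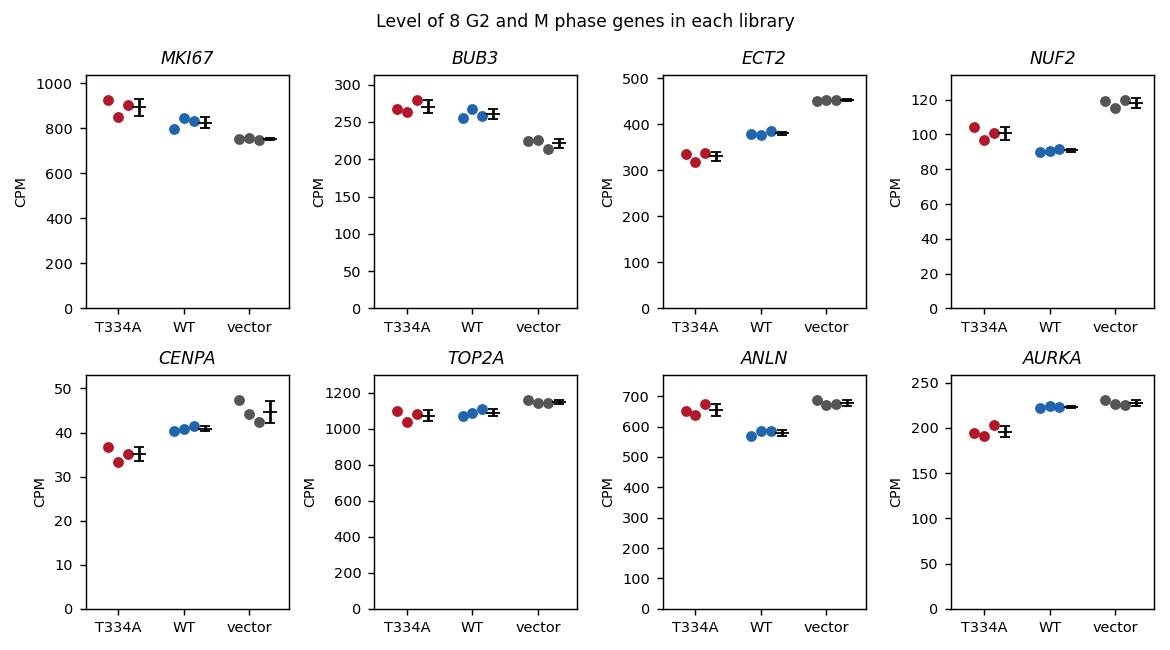
Level (CPM, y axis from 0) of 8 genes in each library of MEL-18 T334A, MEL-18 WT and empty vector cells; dots are libraries and the black bar beside them is the mean ± SD (n = 3). MKI67 and BUB3 are highest in MEL-18 T334A and lowest with the vector, ECT2 and CENPA run the other way, and NUF2 and ANLN are lowest in MEL-18 WT.

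By role, the differences in MEL-18 T334A were uneven. All 5 of the Polo and Aurora kinases and their partners fell, and their group median was -0.13 log2. AURKA, the kinase of spindle poles, had 194, 191 and 203 CPM with MEL-18 T334A, 222, 224 and 223 CPM with MEL-18 WT, and averaged 227 ± 3.27 CPM with the vector (SD, n = 3). The MEL-18 T334A libraries were well below the others, and those of MEL-18 WT just below the vector. AURKA fell by 0.21 ± 0.03 (edgeR adjusted p = 9.12e-07). TPX2, the microtubule protein that activates Aurora A, fell by 0.15 ± 0.03, the Polo kinase PLK1 by 0.13 ± 0.03, survivin (BIRC5) by 0.13 ± 0.03 and AURKB by 0.11 ± 0.03. AURKB and BIRC5 are subunits of the chromosomal passenger complex.

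Among the cyclins, CDK1 and the CDC25 phosphatases, 4 of 6 fell and 1 rose. Cyclin A2 (CCNA2) had 95.9, 90.4 and 104 CPM with MEL-18 T334A and 112 CPM in each vector library, and fell by 0.21 ± 0.04. Cyclin B2 (CCNB2) fell by 0.16 ± 0.03 and cyclin B1 (CCNB1) by 0.11 ± 0.03. CDK1 itself was at 222 ± 7.41 CPM with MEL-18 T334A and 220 ± 9.23 CPM with the vector (SD, n = 3 each), and was not called. CDC25B, which starts CDK1 activation, fell by 0.10 ± 0.03. CDC25C, which removes the inhibitory phosphates of CDK1, rose by 0.12 ± 0.04 (edgeR adjusted p = 0.0168), with 34.5 to 37.3 CPM in MEL-18 T334A libraries against 32.6 to 33.9 CPM with the vector. DESeq2 did not call it.

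At the kinetochore 5 of 7 genes fell and 0 rose. NUF2, NDC80 and SPC25 encode subunits of the NDC80 complex, which binds microtubules. NUF2 had 104, 96.7 and 101 CPM with MEL-18 T334A, 89.9, 90.7 and 91.7 CPM with MEL-18 WT and 119, 115 and 120 CPM with the vector. NUF2 fell by 0.23 ± 0.03 in MEL-18 T334A and SPC25 by 0.18 ± 0.04, while NDC80 was not called (0.06 ± 0.03). The kinesin CENPE fell by 0.15 ± 0.04 and the microtubule depolymerase KIF2C by 0.08 ± 0.03 (edgeR adjusted p = 0.0396). CENPF, a large corona protein, stood at 0.05 ± 0.03 and was not called.

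In the checkpoint group 4 of 7 fell and 1, BUB3, rose. The kinase TTK (MPS1) fell by 0.20 ± 0.04, MAD2L1 (MAD2), the inhibitor of CDC20, by 0.18 ± 0.04, CDC20, the activator of the anaphase promoting complex, by 0.13 ± 0.03, and BUB1B (BUBR1) by 0.12 ± 0.03. The kinase BUB1 (-0.04 ± 0.03) and the ubiquitin-conjugating enzyme UBE2C (-0.05 ± 0.03) were not called. Of the 4 spindle genes, HMMR fell by 0.24 ± 0.04 and the spindle motor KIF11 (Eg5) rose by 0.10 ± 0.03, while NUSAP1 and DLGAP5 were not called. Of the 5 midzone and cytokinesis genes, ECT2, KIF20A and PRC1 fell, KIF20A by 0.08 ± 0.03 and PRC1 by 0.07 ± 0.03. The kinesin KIF23 and the ring scaffold anillin (ANLN) were not called. The calls of KIF20A, KIF2C, PRC1, CDC25B, AURKB, CDC25C and TOP2A were each lost when at least 1 library was left out, among them empty vector replicate 2 for the first 5 of these, MEL-18 T334A replicate 1 for CDC25C and MEL-18 T334A replicate 2 for TOP2A. The other 20 calls held without any single library.

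MEL-18 WT was compared with the same vector libraries, so this comparison is not independent of the one above. NUF2, ECT2 and ANLN fell most and BUB3 and MKI67 rose. Of the 36 genes 14 fell (38.9%) and 2 rose (5.56%), against 14.4% and 14.4% over all tested genes (28.8% in all). Among the 6643 genes at or above 30.4 CPM these shares were 21.4% and 12.3% (33.7% in all). The median was -0.07 log2, against 0 over all tested genes. Replicates did not overlap for 23 of the 36 (63.9%), against 42.7% of all tested genes. The count of 14 rested on single libraries. It was 5 when empty vector replicate 1 was left out and 7 when empty vector replicate 2 was. Leaving out MEL-18 WT replicate 1, 2 or 3 gave 6, 8 or 9, and scaling by library totals alone gave 7. ECT2, NUF2, ANLN, HMMR and CDK1 were called lower in each of these settings.

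The kinetochore group held 5 of the 14, among them NUF2, which fell by 0.38 ± 0.03 (edgeR adjusted p = 6.05e-10). ECT2 fell by 0.25 ± 0.03 (edgeR adjusted p = 9.93e-08). ANLN had 568, 585 and 586 CPM with MEL-18 WT, 650, 637 and 676 CPM with MEL-18 T334A and 688, 670 and 673 CPM with the vector, and fell by 0.22 ± 0.03 in MEL-18 WT (edgeR adjusted p = 7.57e-07). Here the MEL-18 WT libraries alone stood apart. HMMR fell by 0.17 ± 0.04 and CDK1 by 0.14 ± 0.03. CDK1 had 198, 201 and 200 CPM in MEL-18 WT libraries, all below the lowest vector library (213 CPM). Cyclins A2, B1 and B2 were at -0.07 ± 0.04, -0.07 ± 0.03 and -0.06 ± 0.03 and were not called. Of the Polo and Aurora group, BIRC5 alone was called (-0.09 ± 0.03, edgeR adjusted p = 0.0288). AURKA stood at -0.03 ± 0.03. BUB3 rose by 0.24 ± 0.03 (edgeR adjusted p = 1.19e-06) and MKI67 by 0.13 ± 0.03 (edgeR adjusted p = 0.00169), and TOP2A fell by 0.08 ± 0.03 (edgeR adjusted p = 0.0461).

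MEL-18 T334A was set against MEL-18 WT, lines whose constructs differ at the phosphorylation site. The site cannot be told apart from the line here. PCGF2 was itself higher in MEL-18 T334A, by 0.14 ± 0.03 (edgeR adjusted p = 1.48e-04), and the part of its level was not tested. CENPA, ECT2, AURKA and BUB1B were lower in MEL-18 T334A, and ANLN, NUF2, CDK1 and CENPF were higher. Of the 36 genes 12 were called lower (33.3%) and 8 higher (22.2%), against 20% and 21% over all tested genes (40.9% in all). Among those at or above 30.4 CPM the shares were 29.3% and 24.2% (53.5% in all). The shares thus lay near those of genes of like level, and the median log2 fold change was -0.05. Replicates did not overlap for 19 (52.8%), against 48.7% of all tested genes.

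CENPA was lower by -0.22 ± 0.04 log2 (edgeR adjusted p = 1.97e-04), ECT2 by -0.20 ± 0.03 (edgeR adjusted p = 1.72e-06) and AURKA by -0.19 ± 0.03 (edgeR adjusted p = 8.12e-06). BUB1B had 163, 154 and 165 CPM with MEL-18 T334A against 175, 182 and 186 CPM with MEL-18 WT (-0.17 ± 0.03, edgeR adjusted p = 7.58e-05). CCNA2, CDC25B, CCNB2, PLK1 and CDC20 were called lower at -0.14 to -0.10 with no overlap of replicates. MAD2L1, TTK and TPX2 were called lower at -0.11 to -0.08 with overlapping replicates. ANLN was higher by 0.18 ± 0.03 (edgeR adjusted p = 1.85e-05), NUF2 by 0.15 ± 0.03 and CDK1 by 0.15 ± 0.03. CENPF (0.14 ± 0.03), CDC25C (0.12 ± 0.04), MKI67 (0.11 ± 0.03), KIF11 (0.11 ± 0.03) and NDC80 (0.09 ± 0.03) were also higher. The calls of TTK, CDC20, MAD2L1, TPX2, NDC80 and CDC25C were lost without MEL-18 T334A replicate 1, and without at least 1 other library each. BUB3 (0.05 ± 0.03) and TOP2A (-0.02 ± 0.03) were not called. Cyclins A2 and B2 were thus lower and CDK1 higher in the same libraries. The genes around CDK1 on its chromosome were themselves at a median of 0.13. With the shift of each gene's neighbours entered as an offset (below), CDK1 was at 0.03, CCNB2 at -0.03 and CCNA2 at -0.07, and none of them was called.

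Several of the genes with the largest differences lay on chromosome stretches that shifted together. For each gene the median log2 fold change of the 20 tested genes on each side along its chromosome was taken, with the order from RefSeq, and a stretch was said to shift where this median was at least 0.1 in either direction. In MEL-18 T334A against the vector 8 of the 36 lay on such stretches (23.3% of all placed tested genes did). In MEL-18 WT against the vector the number was 6 (15.2%), and between the MEL-18 lines it was 9 (26%).

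The clearest stretch was on chromosome 10. In MEL-18 T334A against the vector, 36 of the 39 neighbours of MKI67 were above 0 and 31 were called higher, with a median of 0.36 (quartiles 0.27 and 0.46), and MKI67 itself was at 0.25. Of the 40 neighbours of BUB3, 37 were above 0, with a median of 0.32 beside 0.29 for BUB3. These 2 windows share 21 genes and are not separate observations. KIF11, also on chromosome 10, rose by 0.10 in MEL-18 T334A beside neighbours at 0.12, so that in this comparison all 3 genes rose by an amount near or below that of their stretch. In MEL-18 WT MKI67 was at 0.13 beside a median of 0.16, while BUB3 at 0.24 lay above 36 of its 40 neighbours, whose median was 0.13. KIF11 was at -0.01 there and not called, although its stretch was higher (0.10). CDK1, the fourth member on chromosome 10, had neighbours at 0.13 between the MEL-18 lines, where it was itself at 0.15. Against the vector CDK1 was at 0.01 beside 0.09 in MEL-18 T334A and at -0.14 beside -0.03 in MEL-18 WT. Between the MEL-18 lines BUB3 was at 0.05 beside 0.19, MKI67 at 0.11 beside 0.18 and KIF11 at 0.11 beside 0.01.

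In MEL-18 T334A against the vector, the stretches of ECT2 (chromosome 3), CENPA (chromosome 2) and MAD2L1 (chromosome 4) were lower, and those of CENPF (chromosome 1, 0.17) and NDC80 (chromosome 18, 0.16) were higher. In MEL-18 WT against the vector those of NUF2 (chromosome 1), ANLN (chromosome 7) and ECT2 were lower. In MEL-18 T334A, 34 of the 40 neighbours of ECT2 were below 0, with a median of -0.24, and ECT2 at -0.45 lay below 37 of them. CENPA at -0.35 lay below 34 of its 40 neighbours, whose median was -0.20. MAD2L1 was at -0.18 beside a median of -0.12. NUF2 at -0.38 in MEL-18 WT lay below 32 of its 40 neighbours, whose median was -0.20. ECT2, CENPA and NUF2 were therefore further from the vector than most of the genes around them. ANLN was at -0.22 in MEL-18 WT beside a median of -0.20, and at 0.18 between the MEL-18 lines beside 0.23. In MEL-18 T334A against the vector its stretch was at 0.00.

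**Figure D3:**
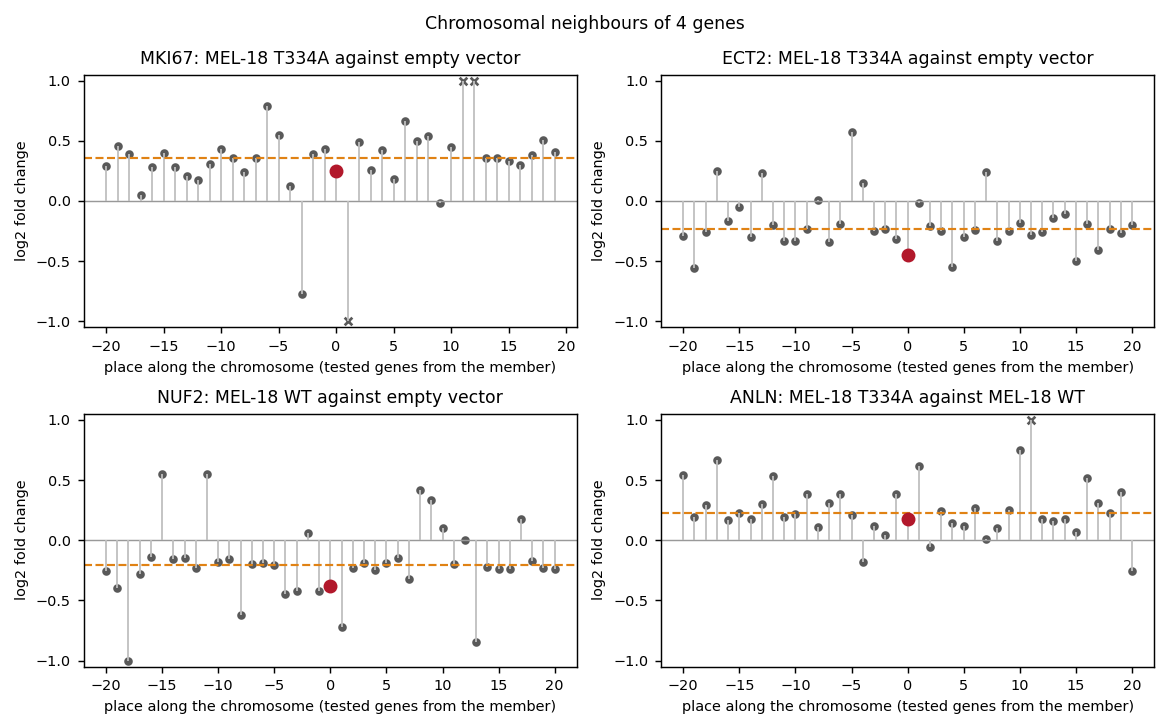
Log2 fold change (y axis) of a gene (red, at 0) and of the 20 tested genes on each side in chromosome order (x axis, in genes; 19 on the right of MKI67), with the median of the neighbours as a dashed orange line; crosses mark neighbours beyond 1 in either direction. MKI67 (0.25) lies under the median of its stretch (0.36), ECT2 (-0.45) and NUF2 (-0.38) lie below medians of -0.24 and -0.20, and ANLN (0.18) is close to its median (0.23).

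Across the 36 genes, the difference of a gene and the median of its neighbours went together. Pearson's r was 0.87 and Spearman's rho 0.73 in MEL-18 T334A against the vector, 0.80 and 0.53 in MEL-18 WT against the vector, and 0.76 and 0.60 between the MEL-18 lines. Over the 14423 placed genes the values were 0.19 and 0.33, 0.18 and 0.34, and 0.24 and 0.40. Of the 14738 tested genes only 6643 reached 30.4 CPM, the lowest mean of the 36, so these sets differ in level. Values for genes of like level were not taken, so closer tracking of neighbours cannot be called particular to the 36. Genes are not independent replicates, all points of a comparison come from the same libraries, and 5 pairs of the 36 share neighbours. Genes that share neighbours could still differ in direction. CDC25C and KIF20A on chromosome 5 share 39 genes between their windows, and in MEL-18 T334A against the vector CDC25C rose and KIF20A fell. Their stretch did not itself shift there (neighbours at -0.03 and -0.04), and both calls were lost without certain single libraries. The pair thus does not show what happens on a stretch that shifts.

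**Figure D4:**
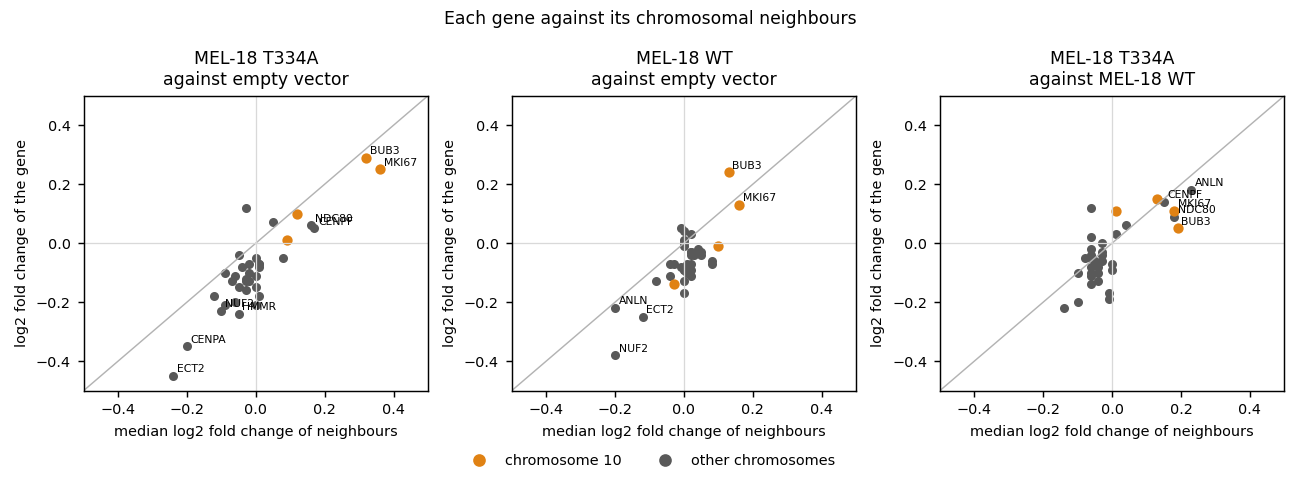
Log2 fold change of each of the 36 genes (y axis) against the median log2 fold change of its chromosomal neighbours (x axis) in the 3 comparisons; the grey diagonal marks equal values and orange points are the 4 genes on chromosome 10. The points run along the diagonal (Pearson's r 0.87, 0.80 and 0.76), and in both comparisons with the vector most lie below it.

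Most lower calls came from outside such stretches, where most of the 36 genes lay. On shifted stretches lay 8 of the 36 in MEL-18 T334A against the vector, 6 in MEL-18 WT against the vector and 9 between the MEL-18 lines. Every gene on a stretch that was lower was itself called lower, 3, 3 and 2 genes in these comparisons. On stretches that were higher lay 5, 3 and 7 genes, of which 3, 2 and 6 were called higher. The matching shares over all tested genes on such stretches were not taken. Of the 23 genes that fell in MEL-18 T334A, 20 had neighbours within 0.1 of 0, and in MEL-18 WT 11 of 14 did. Some of the 20 had neighbours near 0, such as AURKA (0.00), TPX2 (0.00) and SPC25 (0.01). Others had neighbours part of the way to the limit, such as HMMR (-0.05), TTK (-0.06) and PLK1 (-0.07). Neighbours near the limit were found for NUF2 (-0.10), TOP2A (-0.09) and CCNA2 (-0.09). TOP2A itself was at -0.10. CCNA2 shares 36 genes of its window with MAD2L1, which lay on a shifted stretch. Between the MEL-18 lines 10 of the 12 lower calls lay outside shifted stretches, but 6 of the 8 higher calls lay on stretches that were higher. With the shift of the neighbours entered in the fit as an offset, which takes that shift as known, 24 genes were called lower in MEL-18 T334A (17 of the 23 among them) and 1 higher, CDC25C. The lower calls of MAD2L1 and, from outside shifted stretches, TOP2A, CCNB1, CDC25B, PLK1 and KIF20A were lost. MKI67 was then at -0.12, called lower. For MEL-18 WT the counts were 14 lower (10 of the 14 among them) and 1 higher, BUB3. Between the MEL-18 lines they were 7 lower (5 of the 12 among them) and 2 higher (both from the 8). There CCNB2, CCNA2, CDC20, PLK1, MAD2L1, CENPA and TPX2 were no longer called lower, and MKI67 and BUB3 were newly called lower. The higher calls of MKI67, CDK1, NUF2, NDC80, CENPF and ANLN were lost.

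The G2 and M phase genes also moved together between cultures of the same line. In MEL-18 T334A replicate 3 all 36 were above the mean of their group, by a median of 0.04 log2, while 48.7% of tested genes were. In MEL-18 T334A replicate 2, 33 of the 36 were below it, by a median of 0.05. MEL-18 WT replicate 1 had 29 of 36 below its group mean, and empty vector replicate 1 had 27 of 36 above. Over the 630 pairs of these genes the median correlation of such deviations across the 9 libraries was 0.50, and 88.3% were above 0. The median correlation of the 36 with all other tested genes was -0.01. CDC25B (-0.07) and CENPF (-0.02) were the members whose median correlation with the others was below 0. The median deviations of up to 0.05 within a line stand beside medians of -0.11 and -0.07 for MEL-18 T334A and MEL-18 WT against the vector, and the summed level of MEL-18 T334A replicate 3 (9530 CPM) was close to that of the vector libraries (9600 to 9750 CPM).

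**Figure D5:**
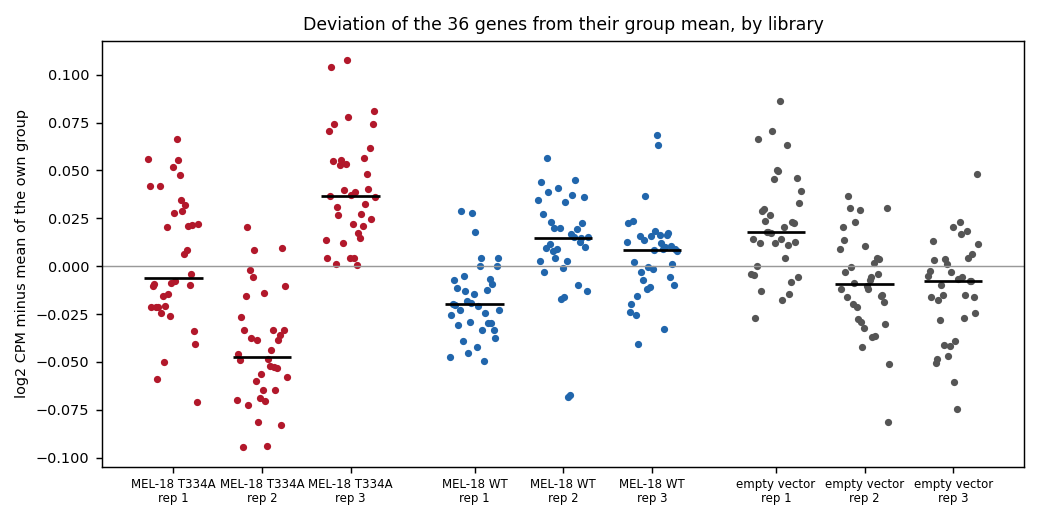
Log2 CPM of each of the 36 genes minus the mean of its own group (y axis) in each of the 9 libraries (x axis); dots are genes and black lines medians. All 36 dots lie above 0 in MEL-18 T334A replicate 3 and 33 of 36 below 0 in MEL-18 T334A replicate 2.

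Other genes of the cell division machinery were counted in the same way, and their counts are read against the same shares. Some of these genes, such as CENPP and CCNA1, lay below 30.4 CPM, so the shares above that level are not matched to theirs. In MEL-18 T334A against the vector 22.5% of all tested genes fell and 34.9% of those at or above 30.4 CPM did, and in MEL-18 WT against the vector 14.4% and 21.4% did. Of 37 other spindle, kinesin and cytokinesis genes, 12 fell (32.4%) and 6 rose in MEL-18 T334A, and 5 fell (13.5%) and 0 rose in MEL-18 WT, shares near these. The nuclear lamina gene LMNB1 fell in both, by 0.20 ± 0.03 and 0.11 ± 0.03. The kinesin KIF15 and the centrosomal kinase NEK2 rose in MEL-18 T334A, each by 0.17 ± 0.03 beside neighbours at 0.13 and 0.17. CDCA2 fell by 0.28 ± 0.04 in MEL-18 WT beside neighbours at -0.20, and SHCBP1 by 0.14 ± 0.03.

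Of 36 other kinetochore and checkpoint genes 13 fell (36.1%) and 3 rose in MEL-18 T334A. In MEL-18 WT 7 fell (19.4%) and 0 rose. The shares that fell were again near those of genes at or above 30.4 CPM. The centromere proteins CENPP, CENPO and CENPQ fell in MEL-18 T334A by 0.38 ± 0.09, 0.33 ± 0.04 and 0.23 ± 0.04, with neighbours at -0.06, -0.19 and 0.01. In MEL-18 WT the kinetochore protein PMF1 fell by 0.26 ± 0.07, CENPO by 0.17 ± 0.04 and INCENP, of the chromosomal passenger complex, by 0.14 ± 0.03. Of 17 condensin and cohesin genes 9 fell (52.9%) and 1 rose in MEL-18 T334A, and 7 fell (41.2%) and 0 rose in MEL-18 WT. The condensin subunits SMC4 and NCAPG fell in MEL-18 T334A by 0.31 ± 0.03 and 0.24 ± 0.03 beside neighbours at -0.16 and 0.02, and the cohesin subunit STAG1 by 0.27 ± 0.03 beside -0.09. In MEL-18 WT NCAPG2, SMC4 and STAG1 fell by 0.25 ± 0.03, 0.16 ± 0.03 and 0.15 ± 0.03.

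The list for the anaphase promoting complex held 18 genes, its subunits and FZR1, UBE2S, PTTG1 and ESPL1. Of these, 3 fell (16.7%) and 3 rose in MEL-18 T334A, and 4 fell (22.2%) and 0 rose in MEL-18 WT. The subunits ANAPC10 and ANAPC13 fell by 0.24 ± 0.06 and 0.20 ± 0.04 in MEL-18 T334A, and ANAPC16 rose by 0.17 ± 0.03 beside neighbours at 0.24. In MEL-18 WT CDC26, ANAPC10 and ANAPC2 fell by 0.27 ± 0.06, 0.17 ± 0.06 and 0.15 ± 0.04.

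Of 15 genes of mitotic entry control, 3 fell (20%) and 3 rose in MEL-18 T334A. In MEL-18 WT 2 fell (13.3%) and 1 rose. The shares that fell were below those of genes at or above 30.4 CPM. FBXO5 (EMI1), an inhibitor of the anaphase promoting complex, had 51.1, 48.9 and 51.4 CPM with MEL-18 T334A, 54.9, 54.9 and 56.2 CPM with MEL-18 WT and 62.6, 60.2 and 64.1 CPM with the vector. It fell in both lines, by 0.30 ± 0.04 and 0.17 ± 0.04, beside neighbours at -0.05 and 0.00. CCNA1, a cyclin A best known from the germ line, had 10.6, 9.14 and 9.39 CPM with MEL-18 T334A, 8.59, 7.49 and 8.4 CPM with MEL-18 WT and 6.71, 7.05 and 7.39 CPM with the vector. It rose by 0.46 ± 0.08 in MEL-18 T334A (edgeR adjusted p = 3.44e-05), the opposite direction to CCNA2. CKS1B, a small subunit of CDK complexes, had 97.2, 99.7 and 105 CPM with MEL-18 T334A, 91.1, 96.1 and 88.9 CPM with MEL-18 WT and 125, 115 and 112 CPM with the vector. It fell by 0.22 ± 0.04 and 0.35 ± 0.04 in these lines, beside neighbours at -0.07 and -0.20. The checkpoint kinase CHEK1 rose by 0.10 ± 0.03 in MEL-18 WT beside neighbours at 0.10. The inhibitory kinases WEE1 and PKMYT1 were not called in any comparison.

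Of 17 genes of the MuvB, B-MYB and FOXM1 regulators, 7 fell (41.2%) and 2 rose in MEL-18 T334A, and 3 fell (17.6%) and 1 rose in MEL-18 WT. FOXM1 had 217, 213 and 219 CPM with MEL-18 T334A, 195, 201 and 195 CPM with MEL-18 WT and 209, 217 and 208 CPM with the vector. It fell by 0.10 ± 0.03 in MEL-18 WT, was not called in MEL-18 T334A against the vector, and was higher in MEL-18 T334A than in MEL-18 WT by 0.13 ± 0.03 beside neighbours at 0.11. MYBL2 (B-MYB) rose by 0.11 ± 0.04 in MEL-18 WT (edgeR adjusted p = 0.0388). The repressive E2F4 fell by 0.21 ± 0.03 and the DREAM kinase DYRK1A by 0.23 ± 0.04 in MEL-18 T334A. There TFDP2, a partner of E2F factors, fell by 0.24 ± 0.04 beside neighbours at -0.18, and E2F5 rose by 0.27 ± 0.07. In MEL-18 WT TFDP2 fell by 0.22 ± 0.04 and the CCAAT-binding subunit NFYB by 0.11 ± 0.04.

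Of 20 genes of replication licensing and S phase entry, 9 fell (45%) and 1 rose in MEL-18 T334A, and 2 fell (10%) and 0 rose in MEL-18 WT, the second share below that of all tested genes. ORC1 and ORC6, subunits of the origin recognition complex, fell by 0.27 ± 0.05 and 0.22 ± 0.04 in MEL-18 T334A, and cyclin E2 (CCNE2) by 0.23 ± 0.05. In MEL-18 WT MCM7, a subunit of the replicative helicase, fell by 0.16 ± 0.03 beside neighbours at -0.16, and ORC6 by 0.12 ± 0.04. Between the MEL-18 lines the share of a further list called lower ran from 13.3% (mitotic entry control) to 40% (replication licensing). The share called higher ran from 10% (replication licensing) to 27.8% (anaphase promoting complex). Over all tested genes 20% were lower and 21% higher, and among those at or above 30.4 CPM 29.3% and 24.2%. The largest differences were in CDCA2 (0.37 ± 0.04, neighbours 0.33) and CENPP (-0.34 ± 0.09, neighbours -0.07).

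Within the 30 genes with a promoter in the table, the 22 with a CHR match had a median log2 fold change of -0.08 in MEL-18 T334A against the vector and the 8 without had -0.11. In MEL-18 WT the medians were -0.07 and -0.03, and between the MEL-18 lines -0.02 and -0.06. The difference between these promoter groups was not tested.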

How the data were processed

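The authors deposited whole-number read counts per gene symbol, not normalized, in 1 file per library. They were made with CASAVA 1.8, STAR 2.5.3a and featureCounts of Subread 1.5.3 on hg19, per the submitters' processing notes, from a stranded poly(A) library kit, per the labels' protocols. The annotation, the strand setting and the handling of multi-mapped reads are not given in the sources that were used.

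Genes passing filterByExpr (14738 of 26364) were fitted with edgeR 4.0.16 (R 4.3.3) on all 9 libraries. TMM factors ran from 0.979 to 1.02, and the design held 1 mean for each group. The quasi-likelihood test was two-sided, Benjamini-Hochberg adjusted over all tested genes, and called below 0.05. Each SE was taken as the size of the log2 fold change divided by the root of F. The fit and the neighbour offset were tested on simulated counts. Neighbours came from the RefSeq order (GRCh38.p14), with 25194 symbols placed and no coordinates carried over. log2 CPM used a prior count of 2.

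Alternatives were DESeq2 1.42.0, limma 3.58.1 (voom), RLE factors, library totals, 2 filters, a replicate block, the compared groups alone, offsets from 20 or 10 neighbours, and each library left out. Counts of the 9 replicate pairs differed by more than sampling noise (chi-square over its degrees of freedom, 1.49 to 3.98).

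The 36 genes, the further lists and the tests were chosen with earlier results of these data known. The rule for values in every library took genes called with no overlap and an absolute log2 fold change of at least 0.25, plus MKI67 and TOP2A. From each further list it took up to 3 called genes per comparison with the largest change. Between the MEL-18 lines, the largest difference in each direction is given. The other genes given by library (ANLN, AURKA, CCNA2, CDK1 and BUB1B), and FOXM1, E2F4, WEE1 and PKMYT1 from the further lists, were chosen after their values were seen.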

Additional observations from a re-analysis of the deposited data

How the results depend on the processing

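With each library of the compared groups left out in turn, genes called lower numbered 5 to 10 in MEL-18 WT against the vector (14 with all libraries), 18 to 26 in MEL-18 T334A against the vector (23) and 8 to 16 between the MEL-18 lines (12). Leaving out a library of the third group gave 14 to 15, 20 to 21 and 10 to 12. With library totals alone, 7 were called lower in MEL-18 WT (14 with TMM), and 7 higher in MEL-18 T334A (4 with TMM). DESeq2 called 11, 22 and 10 lower. With a replicate block the counts were 13, 20 and 12 lower and 2, 4 and 8 higher. Over all tested genes same-numbered libraries did not deviate together (correlations -0.08 to 0.01), while over the 36 genes the correlations ran from -0.24 to 0.37, and 0 of 9 libraries correlated best with their own number.

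The neighbour offset subtracts the shift of the stretch, and it alone reversed directions among the alternatives run. With 20 or 10 neighbours on each side, 1 and 1 genes were called higher in MEL-18 WT, and 1 and 1 in MEL-18 T334A. Between the MEL-18 lines 7 (20 neighbours) were called lower, and 2 and 2 higher. Directions reversed as follows, with log2 fold changes for 20 and then 10 neighbours. In MEL-18 WT, MKI67 was at -0.029 and -0.00929. In MEL-18 T334A against the vector MKI67 was at -0.119 and -0.127, CDK1 at -0.091 and -0.109, BUB3 at -0.0299 and -0.0173, NDC80 at -0.123 and -0.142, CENPF at -0.117 and -0.143 and KIF11 at -0.0187 and -0.0244. Between the MEL-18 lines MKI67 was at -0.0897 and -0.118, BUB3 at -0.134 and -0.125, NDC80 at -0.0396 and -0.074 and ANLN at -0.0606 and -0.0429. There PLK1 was at 0.00414 with 20 neighbours, and TOP2A at 0.105, CENPF at -0.0122 and TPX2 at 0.00853 with 10. The p-values of these fits leave out the error of the offset. On the gene strand alone, CCAAT boxes were found in 13 promoters rather than 22. With 10 neighbours on each side, 10 and 10 of the 36 lay on shifted stretches in MEL-18 T334A against the vector and between the MEL-18 lines, against 8 and 9 with 20. The lowest count of any of the 36 in a library was 921, where counting error alone is comparable with the spread between cultures (median coefficient of variation 2.49%).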
